A study of Mus musculus with 13 samples.

Results

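Wild-type Tet2 was put back into mouse embryonic fibroblasts (MEFs) that lack the gene, and RNA-seq counts were read at day 5 of reprogramming toward pluripotency. The comparison takes 6 of the 13 libraries of the series, chosen by their labels: Tet2-WT replicates 1, 2 and 250 against replicates 2, 100 and 250 with pMXs, the empty retroviral vector. Both groups came from primary Tet2-/- OKSM; rtTA MEFs of embryonic day 12.5, strain background labelled V6.5 129XBI/6. OKSM stands for the factors Pou5f1, Klf4, Sox2 and Myc, which doxycycline switches on through the rtTA activator. After infection both groups were seeded on MEF feeder cells arrested with Mito-C and given medium with 1000 U/mL LIF, 1 µM PD0325901 (which blocks MEK and so ERK signalling), 3 µM CHIR99021 (which activates beta-catenin) and 2 µg/mL doxycycline, at 5% oxygen. The labels name no isolation step, so feeder cells and cells that did not reprogram may be in every day 5 library. They do not say how many embryos or cultures the replicates came from, and the p-values therefore weigh differences against library-to-library spread, which may be technical. The libraries of Tet2-E (n = 4), a stalling mutant in the same vector and cells, and of untreated MEFs of the same genotype (n = 3), which the series text lists as empty vector cells, give levels for reference.

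Tet2 is a dioxygenase that oxidises 5-methylcytosine in DNA, mostly at CpG sites, to 5-hydroxymethylcytosine and further to 5-formylcytosine and 5-carboxylcytosine. The oxidised bases are lost through replication or cut out by the glycosylase Tdg and base excision repair, so a methylated promoter or enhancer can become unmethylated. In reprogramming fibroblasts, TET enzymes are known for the passage from a mesenchymal to an epithelial state and for opening pluripotency genes.

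Levels are CPM, counts scaled to library size after TMM, given in the order of replicates 2, 100 and 250 for pMXs and 1, 2 and 250 for Tet2-WT. A gene is said to have risen or fallen where edgeR's quasi-likelihood test gave a Benjamini-Hochberg adjusted p under 0.05 over all 14607 genes tested. Log2 fold changes are Tet2-WT minus pMXs, ± the approximate standard error. Total counts were 14310277 to 25720579 in the 6 libraries. Tet2 itself stood at 58.8, 39.1 and 41.1 CPM with pMXs and 1240, 1180 and 1230 CPM with Tet2-WT, so the 3 vector-supplied levels lay within a narrow range far above the 3 empty-vector ones (log2 change 4.72 ± 0.31, adjusted p = 3e-06). The counts do not check the deletion, because they do not show which exons the reads cover. On the first principal component of the 6 libraries, which held 57.8% of the variance, the Tet2-WT libraries lay at -32.8, -30.1 and -15.7 and the pMXs libraries at 16.4, 27.6 and 34.6. On the second, with 18.2%, Tet2-WT 250 was at -24.4 and pMXs 2 at 25.1. Day 5 libraries numbered 1 and 2 deviated together, as did those numbered 100 and 250. Tet2-WT has 2 libraries of the first kind and 1 of the second, while pMXs has 1 and 2. Library making took place in 2 batches according to the labels, which assign no library to a batch. Whether the batches match these number sets is therefore unknown. The main fit has no term for either, so a batch difference may enter its calls. Xist and the Y-linked Kdm5d were between 0.336 and 1.38 CPM in all 6 libraries.

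Of the genes tested, 878 rose and 952 fell with Tet2-WT, 6.01% and 6.52%, and these shares are the background for every list below. The lists were chosen with earlier results of these data known, so a share above the background is not a test of a list. At least 2-fold changes made up 246 of the rises and 283 of the falls, and at least 4-fold changes 69 and 45. The median change over all genes was -0.00367 on the log2 scale, the median absolute change 0.151, and that of called genes 0.655. Libraries of the groups did not overlap for 17.7% of genes on the higher side and 16.9% on the lower side. Members named from the lists below were mostly picked for a small p. Their separate groups therefore follow largely from that choice and are given as description only. Leaving out pMXs 100, pMXs 250, Tet2-WT 1 or Tet2-WT 2 lowered the rises to 550, 530, 512 and 550 and the falls to 625, 567, 595 and 585. Within numbers 1 and 2 alone 1378 genes were called, and within 100 and 250 alone 1467, against 1830 in the pooled fit. The plot of all genes shows both sides.

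**Figure D1:**
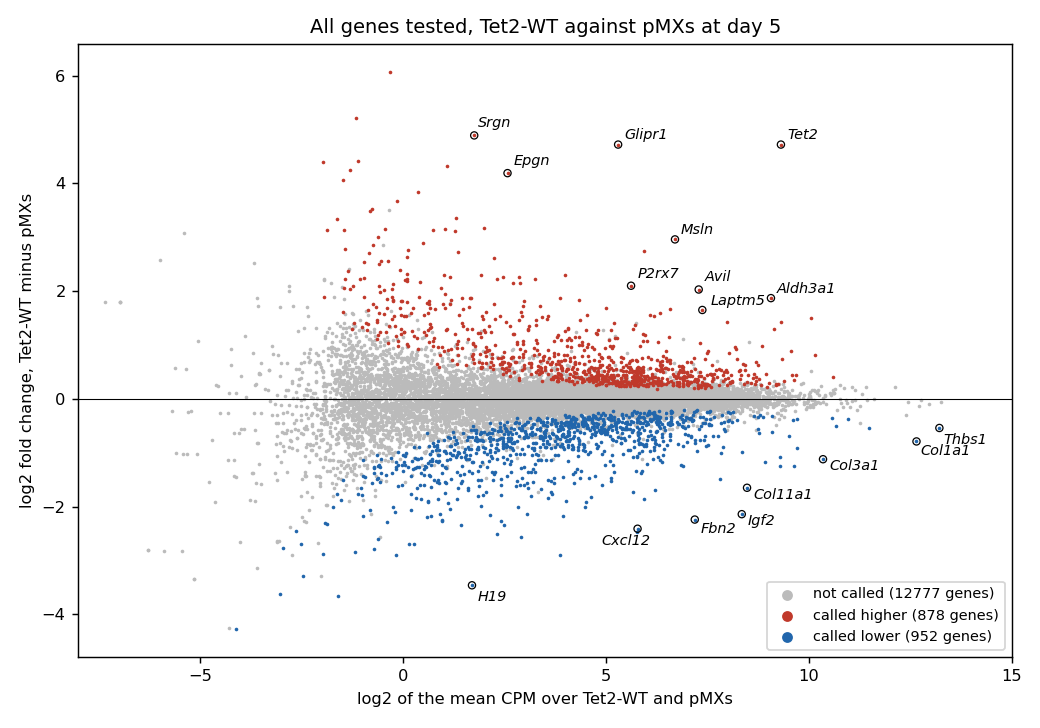
Each point is 1 of the 14607 genes tested, with the log2 of its mean CPM over both groups on the horizontal axis and its log2 fold change (Tet2-WT minus pMXs) on the vertical axis. Red points are the 878 genes called higher, blue points the 952 called lower, and circled genes are named; Tet2 stands at 4.72, and the abundant matrix genes Col1a1 and Thbs1 at -0.79 and -0.54.

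The genes given next, up to those that fell, were taken only from called genes with at least a 2-fold change and groups that did not overlap, so separate groups were fixed by the choice. Surface, secreted and metabolic proteins were among those with the smallest p on the higher side. P2rx7, an ATP-gated cation channel, was at 16.3, 18 and 21.2 CPM with pMXs and 86.4, 78.8 and 73.1 CPM with Tet2-WT (log2 change 2.10 ± 0.11, adjusted p = 6.43e-08). Mst1, the secreted macrophage-stimulating protein, was at 4.95, 5.67 and 5.48 CPM with pMXs and 26.3, 27.9 and 24.9 CPM with Tet2-WT (log2 change 2.29 ± 0.12, adjusted p = 6.43e-08). Chst3, which sulfates chondroitin in the Golgi, was at 52.6, 42.9 and 42.7 CPM with pMXs and 151, 148 and 138 CPM with Tet2-WT (log2 change 1.66 ± 0.09, adjusted p = 6.43e-08). Tet2-WT 250 was the lowest restored library in each of the 3. Avil, an actin-binding protein of the gelsolin family, was at 60.7, 61.5 and 61.1 CPM with pMXs and 262, 246 and 241 CPM with Tet2-WT (log2 change 2.03 ± 0.12, adjusted p = 1.01e-07). Aldh3a1, an aldehyde dehydrogenase best known from the cornea, was at 268, 220 and 198 CPM with pMXs and 925, 844 and 746 CPM with Tet2-WT (log2 change 1.87 ± 0.13, adjusted p = 7.56e-07). Lgals3, the sugar-binding galectin-3, was at 149, 146 and 119 CPM with pMXs and 403, 378 and 329 CPM with Tet2-WT (log2 change 1.42 ± 0.12, adjusted p = 4.64e-06). In Aldh3a1 and Lgals3 pMXs 2 was the highest empty-vector library while Tet2-WT 250 was the lowest restored one. Of the 15, Tet2 set aside, 8 remain. They were Srd5a1, a steroid reductase (1.18 ± 0.08), Adh7, an alcohol dehydrogenase that acts on retinol (1.37 ± 0.10), and the zinc finger gene Zfp961 (1.30 ± 0.09). The others were the ligand Bmp6 (1.56 ± 0.11), Fgfbp1, which frees FGFs from the matrix (1.06 ± 0.08), Itgam (3.18 ± 0.26), Srgn, the core protein of granule proteoglycans (4.89 ± 0.41), and Laptm5, a lysosomal membrane protein of blood cells (1.65 ± 0.14).

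The largest rises included further secreted and surface proteins. Glipr1, a secreted protein of the CAP family, was at 4.25, 2.45 and 1.98 CPM with pMXs and 80.3, 78.2 and 68.7 CPM with Tet2-WT (log2 change 4.72 ± 0.38, adjusted p = 9.12e-06). Epgn, a ligand of the EGF receptor, was at 0.697, 0.728 and 0.342 CPM with pMXs and 16.6, 12 and 5.3 CPM with Tet2-WT (log2 change 4.19 ± 0.43, adjusted p = 2.48e-05). Msln, the surface protein mesothelin, was at 22.3, 26.9 and 21.4 CPM with pMXs and 217, 209 and 126 CPM with Tet2-WT (log2 change 2.96 ± 0.28, adjusted p = 3.56e-05). Tet2-WT 250 was below the other restored libraries in all 3, most so for Epgn. Sprr2b, of the small proline-rich envelope proteins whose close copies may share reads, was at 29.2, 11.8 and 7.32 CPM with pMXs and 128, 135 and 59.7 CPM with Tet2-WT (log2 change 2.75 ± 0.57, adjusted p = 0.00818), and pMXs 2 stood well above the other empty-vector libraries.

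On the lower side, chosen in the same way, matrix and adhesion genes were among those with the smallest p. Cpxm1, a secreted carboxypeptidase-like protein, was at 21.4, 22.1 and 24 CPM with pMXs and 8.58, 8.09 and 7.98 CPM with Tet2-WT (log2 change -1.45 ± 0.10, adjusted p = 6.14e-07). Cxcl12, the stromal chemokine that binds Cxcr4, was at 96.1, 90.7 and 89.4 CPM with pMXs and 14.5, 16.1 and 21.5 CPM with Tet2-WT (log2 change -2.41 ± 0.16, adjusted p = 6.14e-07). Col5a1, a chain of the collagen that starts thick fibrils, was at 785, 869 and 865 CPM with pMXs and 418, 398 and 384 CPM with Tet2-WT (log2 change -1.07 ± 0.08, adjusted p = 9.56e-07). Cxcl12 was lowest in Tet2-WT 1. Col11a1, a chain of another fibril-forming collagen, was at 493, 494 and 625 CPM with pMXs and 168, 167 and 180 CPM with Tet2-WT (log2 change -1.65 ± 0.14, adjusted p = 3.99e-06). Tnc, the matrix protein tenascin-C, was at 645, 650 and 701 CPM with pMXs and 302, 280 and 308 CPM with Tet2-WT (log2 change -1.17 ± 0.10, adjusted p = 4.7e-06). Mfap4, a glycoprotein of elastic microfibrils, was at 12.8, 12.4 and 13.6 CPM with pMXs and 4.32, 4.06 and 3.92 CPM with Tet2-WT (log2 change -1.65 ± 0.14, adjusted p = 4.7e-06). The Tet2-WT libraries were close together in all 3 genes. The other genes of the 15 were Cdh3, P-cadherin (-1.27 ± 0.11), the chloride channel regulator Clca3a1 (-1.99 ± 0.17), Tgfbi, a matrix protein induced by TGF-beta (-1.17 ± 0.10) and Setbp1 (-1.21 ± 0.11). They also held Col3a1 (-1.12 ± 0.10), the BMP9 receptor Acvrl1 (-1.48 ± 0.14), the actin-binding drebrin Dbn1 (-1.01 ± 0.10), the calcium channel Cacna1h (-1.80 ± 0.18) and the receptor phosphatase Ptprd (-1.44 ± 0.15). The largest falls included H19, with log2 changes of -4.05 to -1.79 over the alternative settings, the weakest within numbers 1 and 2. Others were Abi3bp (-3.64 to -2.18), Penk (-2.77 to -2.14), Lum (-2.95 to -2.08) and Il1rl1 (-2.95 to -1.12). Abi3bp, Lum and Il1rl1 lost their call in some settings.

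**Figure D2:**
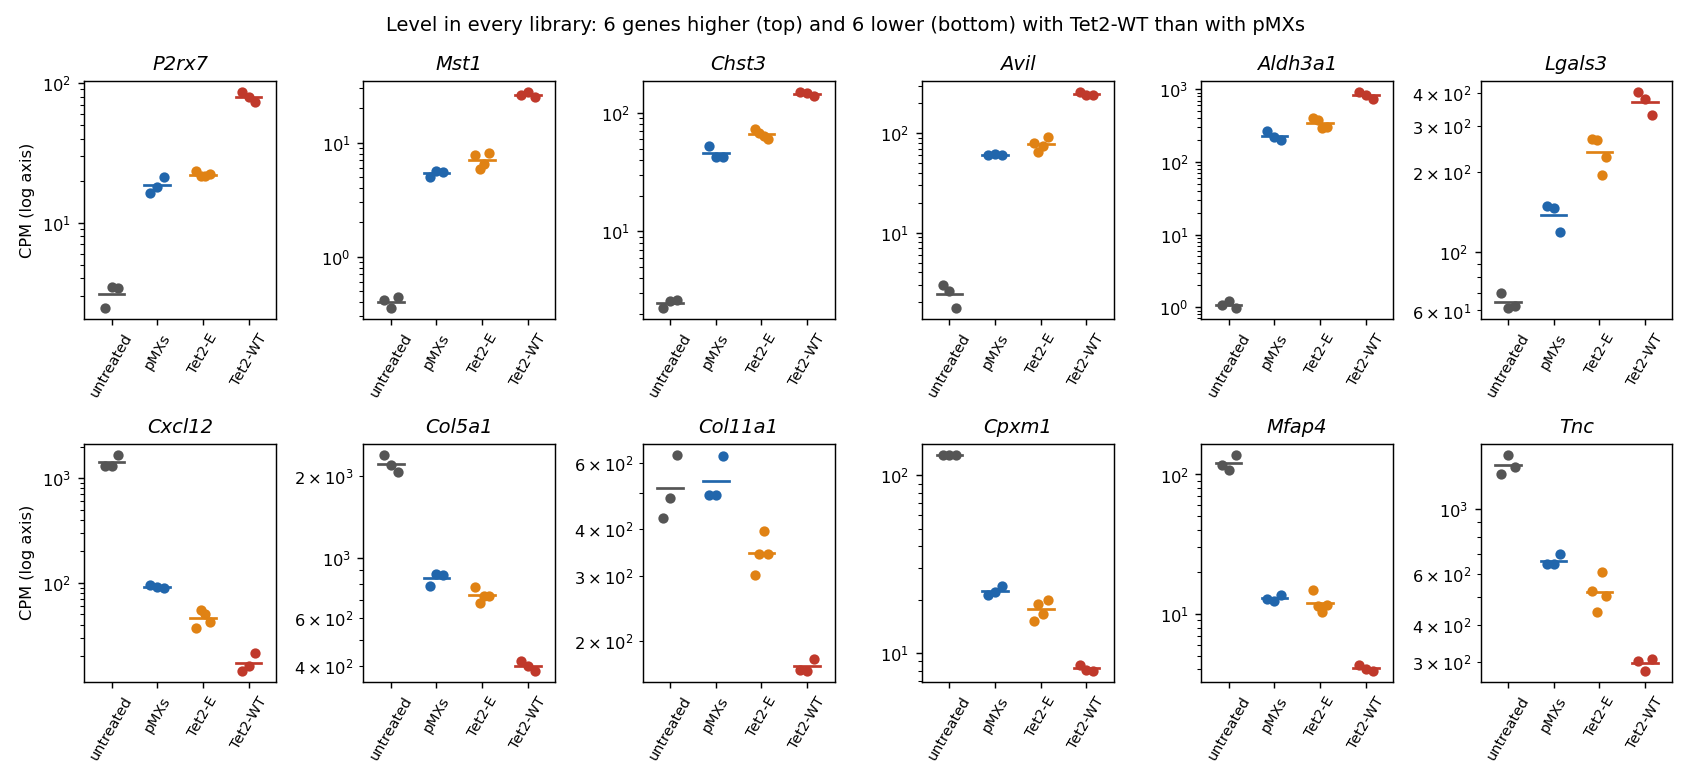
Each panel gives 1 gene, with CPM on a log axis and 1 point per library in untreated MEFs (n = 3), pMXs (n = 3), Tet2-E (n = 4) and Tet2-WT (n = 3); short lines are group means. The top row holds 6 genes that rose and the bottom row 6 that fell, chosen so that no Tet2-WT point overlaps a pMXs point, as for P2rx7 with 86.4, 78.8 and 73.1 CPM against 16.3, 18 and 21.2 CPM.

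Tet2 acts on CpG cytosines, so the promoters of the 3 genes with the smallest p on each side are printed, 250 bases before to 50 after the start, from RefSeq on GRCm38.p6 and in the direction of transcription. CG is in capitals.
P2rx7: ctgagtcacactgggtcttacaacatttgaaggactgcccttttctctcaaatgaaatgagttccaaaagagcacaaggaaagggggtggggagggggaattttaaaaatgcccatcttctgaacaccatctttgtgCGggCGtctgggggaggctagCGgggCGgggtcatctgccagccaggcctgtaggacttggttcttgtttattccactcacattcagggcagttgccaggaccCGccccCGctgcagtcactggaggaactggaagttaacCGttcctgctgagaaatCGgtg
Mst1: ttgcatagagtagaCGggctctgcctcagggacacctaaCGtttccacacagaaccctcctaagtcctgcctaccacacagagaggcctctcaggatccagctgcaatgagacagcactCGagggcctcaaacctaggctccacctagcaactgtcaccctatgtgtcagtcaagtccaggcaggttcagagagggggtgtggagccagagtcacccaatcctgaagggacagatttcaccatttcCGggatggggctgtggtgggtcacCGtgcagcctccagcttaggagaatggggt
Chst3: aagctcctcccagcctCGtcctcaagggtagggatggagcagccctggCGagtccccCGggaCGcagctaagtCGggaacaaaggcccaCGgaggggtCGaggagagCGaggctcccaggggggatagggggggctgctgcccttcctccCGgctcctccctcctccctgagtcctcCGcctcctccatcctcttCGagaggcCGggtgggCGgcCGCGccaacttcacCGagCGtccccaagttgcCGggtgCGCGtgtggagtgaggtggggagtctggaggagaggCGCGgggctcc
Cpxm1: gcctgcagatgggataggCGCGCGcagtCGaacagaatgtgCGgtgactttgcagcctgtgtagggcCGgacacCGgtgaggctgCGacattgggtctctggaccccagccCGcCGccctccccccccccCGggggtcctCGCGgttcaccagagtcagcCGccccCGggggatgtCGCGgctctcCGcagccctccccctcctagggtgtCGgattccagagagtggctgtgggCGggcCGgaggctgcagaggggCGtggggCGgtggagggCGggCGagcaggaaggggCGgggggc
Cxcl12: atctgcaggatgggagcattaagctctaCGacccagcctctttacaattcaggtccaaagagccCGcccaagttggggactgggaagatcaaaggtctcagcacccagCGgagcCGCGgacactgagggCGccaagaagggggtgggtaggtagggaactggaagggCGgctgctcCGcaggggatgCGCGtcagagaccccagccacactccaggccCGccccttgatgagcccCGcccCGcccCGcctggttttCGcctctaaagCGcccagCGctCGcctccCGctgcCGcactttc
Col5a1: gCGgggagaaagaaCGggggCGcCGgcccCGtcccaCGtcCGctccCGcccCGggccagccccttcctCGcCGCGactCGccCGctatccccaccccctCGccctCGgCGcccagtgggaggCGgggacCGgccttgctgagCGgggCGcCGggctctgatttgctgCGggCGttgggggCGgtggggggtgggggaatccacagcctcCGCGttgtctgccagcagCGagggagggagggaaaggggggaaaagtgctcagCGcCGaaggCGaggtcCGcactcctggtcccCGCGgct
They lie at chr5:122643677-122643976 (+ strand), chr9:108080186-108080485 (+ strand), chr10:60219211-60219510 (- strand), chr2:130397580-130397879 (- strand), chr6:117168285-117168584 (+ strand) and chr2:27886175-27886474 (+ strand). The windows of the genes that rose hold 8, 5 and 22 CpG sites (P2rx7, Mst1 and Chst3), and those of the genes that fell 26, 20 and 34 (Cpxm1, Cxcl12 and Col5a1). P2rx7 has 2 listed starts, and its window is that of the first listed. For reference, the median over all 27025 RefSeq promoters was 7, with quartiles of 3 and 21. Over the 8767 with an entry among genes at 5 CPM or more in a group the median was 22, with quartiles of 15 and 29. Of the 14 smallest-p genes that rose besides Tet2, 13 have an entry, and their windows hold from 2 (Avil) to 27 (Bmp6) CpG sites with a median of 8, the count that P2rx7 has. Adh7 (3) and Fgfbp1 (4) were among the 4 with at most 5 sites, a class that takes in 43.6% of all promoters and 6.16% of those at 5 CPM or more. Motifs were searched on both strands. TATAAA, the TATA box, was in the windows of Adh7, Fgfbp1, Srgn and Laptm5, against 14.2% of all promoters and 6.5% of those at 5 CPM or more. TGANTCA, bound by AP-1 factors, was in those of P2rx7 and Adh7, against 7.93% and 4.33%. GGAATG, bound by TEAD factors, was in 0 of the 13, against 14.6% and 11.6%. Of the 15 genes that fell only 9 have an entry. Besides the 3 printed, their windows hold 0 (Col3a1), 3 (Clca3a1), 9 (Col11a1), 10 (Tnc), 22 (Tgfbi) and 30 (Dbn1) CpG sites. TATAAA was in those of Tnc and Col3a1 and GGAATG in that of Col3a1. An entry was found for 78.7% of all tested genes and 80.3% of those at 5 CPM or more. That is too few to set the called genes against the rest, and no contrast between the sides is drawn. The genes described were picked by p and size of change. The shares over all promoters are thus given for reference, and no excess or lack is read from them. No methylation was measured in these libraries, and the windows are a description only.

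Of 42 tested collagen chains 16 fell and 2 rose, against 6.52% and 6.01% of all genes, and the median change was -0.78. Fibril-forming chains led by level. Col1a1, the main chain of type I collagen, was at 7720, 7500 and 9110 CPM with pMXs and 5000, 4650 and 4470 CPM with Tet2-WT (log2 change -0.79 ± 0.10, adjusted p = 9.95e-05). Col3a1, the chain of type III collagen, was at 1620, 1850 and 1890 CPM with pMXs and 864, 842 and 748 CPM with Tet2-WT (log2 change -1.12 ± 0.10, adjusted p = 7.71e-06). Col12a1, which decorates fibril surfaces, was at 933, 840 and 856 CPM with pMXs and 421, 337 and 350 CPM with Tet2-WT (log2 change -1.25 ± 0.14, adjusted p = 3.82e-05). Each of these had separate groups. Col1a2, the partner chain of Col1a1, did not pass although its groups did not overlap (5790, 5750 and 6120 CPM with pMXs and 5290, 5090 and 4040 CPM with Tet2-WT, log2 change -0.29 ± 0.10, adjusted p = 0.0734). With the replicate number as a block (the replicate block below) it was called (-0.39 ± 0.08, adjusted p = 0.00324). A chain that rose was Col17a1, a transmembrane collagen of hemidesmosomes (0.38, 0.345 and 0.274 CPM with pMXs and 3.85, 2.46 and 2.72 CPM with Tet2-WT, log2 change 3.14 ± 0.27, adjusted p = 4.56e-06). The other was Col9a3 (4.44, 4.06 and 3.35 CPM with pMXs and 10.6, 10.9 and 5.97 CPM with Tet2-WT, log2 change 1.21 ± 0.23, adjusted p = 0.00273). Both stood at low levels. Enzymes that modify or assemble collagen fell in 8 of 30 and rose in 2 (median -0.16), and in 13 and 3 with the replicate block. Among them were the crosslinking oxidase Loxl1 (-0.95 ± 0.12) and the prolyl hydroxylases P4ha3 (-0.77 ± 0.12) and P4ha2 (-0.46 ± 0.09), while Pcolce2, which speeds removal of the collagen propeptide, rose (0.71 ± 0.15). The other member that rose, P3h4 (0.26 ± 0.06), lost its call without pMXs 250 (0.23, adjusted p = 0.0566), Tet2-WT 1 (0.23, adjusted p = 0.0601) or Tet2-WT 2 (0.25, adjusted p = 0.0501).

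Matrix glycoproteins and proteoglycan cores had 28 of 52 members that fell and 2 that rose (median -0.53), with 18 falls without Tet2-WT 2. Fbn2, a fibrillin of developing microfibrils, was at 235, 214 and 270 CPM with pMXs and 52.4, 37.6 and 62.6 CPM with Tet2-WT (log2 change -2.24 ± 0.24, adjusted p = 8.61e-05). Bgn, the proteoglycan biglycan, was at 858, 1180 and 1320 CPM with pMXs and 402, 423 and 597 CPM with Tet2-WT (log2 change -1.24 ± 0.19, adjusted p = 0.00053). Thbs1, thrombospondin-1 and the most abundant of those named, was at 10300, 11600 and 11800 CPM with pMXs and 7790, 7500 and 7950 CPM with Tet2-WT (log2 change -0.54 ± 0.09, adjusted p = 0.00157). All 3 had separate groups, and in Bgn pMXs 2 was the lowest empty-vector library. Fn1, fibronectin, also fell (3800, 2960 and 3340 CPM with pMXs and 2570, 2220 and 2160 CPM with Tet2-WT, log2 change -0.54 ± 0.11, adjusted p = 0.00525), and Mfap2, a microfibril partner of fibrillins, fell at a low level (5.64, 6.86 and 9.17 CPM with pMXs and 1.45, 1.45 and 1.96 CPM with Tet2-WT, log2 change -2.15 ± 0.22, adjusted p = 2.2e-05). Against the trend, Ecm1, a secreted matrix protein of skin, rose (213, 202 and 199 CPM with pMXs and 452, 416 and 296 CPM with Tet2-WT, log2 change 0.92 ± 0.18, adjusted p = 0.00412). The other rise was Emilin2 (0.50 ± 0.15), and 1 rise was left without pMXs 100, pMXs 2, pMXs 250 or Tet2-WT 250. Proteases and inhibitors of the matrix fell in 16 of 32 and rose in 1 (median -0.58). The gelatinase Mmp2 (-0.98 ± 0.14), the aggrecanase Adamts4 (-0.87 ± 0.09) and the plasminogen activator Plat (-0.94 ± 0.10) fell together with the inhibitors Timp2 (-0.62 ± 0.07) and Timp3 (-0.50 ± 0.10). Mmp9, another gelatinase, was the member that rose (0.38, 0.345 and 0.616 CPM with pMXs and 1.64, 1.53 and 1.43 CPM with Tet2-WT, log2 change 1.82 ± 0.47, adjusted p = 0.0187). Its call was lost without pMXs 100, pMXs 2, Tet2-WT 1 or Tet2-WT 2, when its change was 1.62 to 1.82.

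Of 14 general fibroblast markers 6 fell and 2 rose. They summed to 22400 to 26500 CPM in the pMXs libraries, 17200 to 18400 in the Tet2-WT libraries and 46200 to 48900 in untreated MEFs. Most of this sum is Col1a1, Col1a2, Col3a1 and Vim, so it is not independent of the collagen list. Without the 3 collagen chains the sums overlapped, at 7320, 8430 and 9350 CPM for pMXs and 7210, 6600 and 8250 for Tet2-WT. Vim, the filament vimentin, did not pass and made up most of what was left. The other 10 markers came to 1210, 1340 and 1390 CPM with pMXs and 931, 878 and 1070 with Tet2-WT. None of the 14 was at 0 in any group. The rises, Twist2 and S100a4, were called in 0 cases without pMXs 250, Tet2-WT 1 or Tet2-WT 2 and in 1 without pMXs 2 or with the replicate block. Fewer fibroblasts or feeder cells and less matrix RNA per cell cannot be told apart in these bulk libraries, and the part of either was not tested.

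Sulfated glycosaminoglycan synthesis went mostly the way of the matrix, 12 of 45 genes down and 2 up (median -0.14). Sulf1, which trims sulfate from heparan chains outside the cell, was at 316, 287 and 309 CPM with pMXs and 175, 167 and 152 CPM with Tet2-WT (log2 change -0.89 ± 0.09, adjusted p = 2.2e-05). Dse, the epimerase that makes dermatan, was at 45.8, 50.8 and 56.6 CPM with pMXs and 32, 31.8 and 35.2 CPM with Tet2-WT (log2 change -0.63 ± 0.10, adjusted p = 0.000616). Has2, the hyaluronan synthase, was at 19.9, 16.6 and 14.7 CPM with pMXs and 7.97, 8.99 and 6.16 CPM with Tet2-WT (log2 change -1.14 ± 0.19, adjusted p = 0.00094). The groups were apart in all 3. The rises were Chst3 and the sulfate transporter Slc26a2 (0.38 ± 0.10), the latter not called without pMXs 100, pMXs 250 or Tet2-WT 1 (0.31 to 0.36). With the replicate block 4 members rose. Purinergic receptors and nucleotide-handling enzymes had 2 rises, P2rx7 and the adenosine deaminase Ada (5.45, 5.02 and 4.11 CPM with pMXs and 14.4, 12.6 and 8.98 CPM with Tet2-WT, log2 change 1.30 ± 0.26, adjusted p = 0.00358), and 4 falls among 31 (median 0.01). Enpp1, an ectoenzyme that splits extracellular ATP, fell in every setting run (2.66, 2.87 and 3.01 CPM with pMXs and 0.751, 0.895 and 0.669 CPM with Tet2-WT, log2 change -1.86 ± 0.17, adjusted p = 7.14e-06). The other falls were the ectoenzymes Nt5e (-0.56 ± 0.16) and Entpd2 (-1.12 ± 0.30) and the adenosine receptor Adora2b (-1.02 ± 0.28), and without pMXs 250, Tet2-WT 1 or Tet2-WT 2 the falls numbered 1.

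Transcription factors of mesenchyme fell in 10 of 40 and rose in 1 (median -0.24). Osr1, a zinc finger factor of mesoderm, was at 4.75, 8.58 and 10.7 CPM with pMXs and 2.3, 2.69 and 2.96 CPM with Tet2-WT (log2 change -1.59 ± 0.28, adjusted p = 0.00173). Foxc1, a forkhead factor, was at 77.2, 107 and 96.4 CPM with pMXs and 46.6, 54.1 and 63.9 CPM with Tet2-WT (log2 change -0.77 ± 0.17, adjusted p = 0.00781). Prrx2, a paired-related homeobox factor, was at 40.5, 41.6 and 36.8 CPM with pMXs and 24.7, 27.3 and 25.5 CPM with Tet2-WT (log2 change -0.62 ± 0.14, adjusted p = 0.00733). All were lower in every Tet2-WT library than in any pMXs library. The falls numbered 3, 6, 4 and 3 without pMXs 100, pMXs 250, Tet2-WT 1 and Tet2-WT 2. Twist2 was the member that rose (0.42 ± 0.13), with no call left without pMXs 2, pMXs 250, Tet2-WT 1 or Tet2-WT 2 (0 rises in each) or, for this gene, with the replicate block (0.41 ± 0.15, adjusted p = 0.0873), under which 2 members rose. Contractile and cytoskeletal genes fell in 6 of 23 and rose in 2 (median -0.16). The focal adhesion protein Tgfb1i1 fell (46.8, 55.9 and 59.8 CPM with pMXs and 30.5, 32.3 and 35.4 CPM with Tet2-WT, log2 change -0.73 ± 0.14, adjusted p = 0.00239), while Actg2, the enteric smooth muscle actin, rose (71.2, 50.9 and 52.6 CPM with pMXs and 126, 136 and 124 CPM with Tet2-WT, log2 change 1.15 ± 0.16, adjusted p = 0.000345). Acta2, the smooth muscle actin of myofibroblasts, overlapped between groups (519, 497 and 551 CPM with pMXs and 427, 469 and 510 CPM with Tet2-WT, log2 change -0.16 ± 0.11, adjusted p = 0.415). The falls in this list numbered 2, 2, 1 and 2 without the same 4 libraries pMXs 100, pMXs 250, Tet2-WT 1 and Tet2-WT 2, the rises 1 in each case, and the falls 11 with the replicate block.

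**Figure D3:**
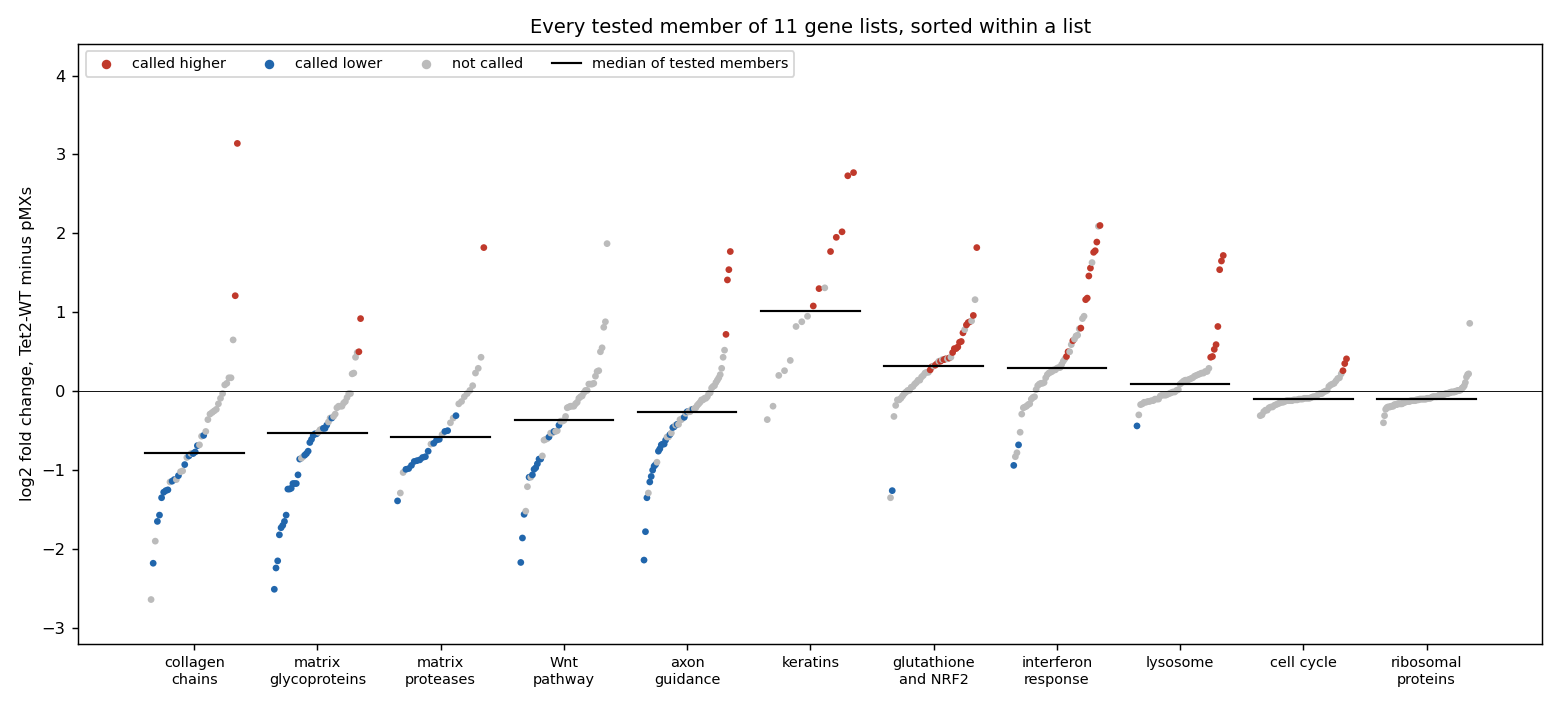
Each point is 1 tested member of 11 gene lists, sorted within its list, with its log2 fold change (Tet2-WT minus pMXs) on the vertical axis; red and blue points were called higher or lower, grey points were not called, and black lines are medians. Collagen chains, matrix glycoproteins and matrix proteases have medians of -0.78, -0.53 and -0.58, keratins of 1.01, and ribosomal proteins lie around -0.09 with no call.

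Signalling genes that fell were more than those that rose in 4 lists. Of 46 TGF-beta and BMP ligands, receptors and feedback genes, 13 fell and 3 rose (median -0.17). Among ligands, Bmp4 was at 26.8, 37.5 and 40.4 CPM with pMXs and 10.5, 11.5 and 16.1 CPM with Tet2-WT (log2 change -1.46 ± 0.21, adjusted p = 0.000439). Tgfb3 was at 144, 145 and 159 CPM with pMXs and 94.7, 94.9 and 95.6 CPM with Tet2-WT (log2 change -0.65 ± 0.08, adjusted p = 8.18e-05). The stress-induced Gdf15 was at 18.4, 17.3 and 14.2 CPM with pMXs and 44.3, 40.5 and 29.9 CPM with Tet2-WT (log2 change 1.2 ± 0.17, adjusted p = 0.000279). Bmp4 and Tgfb3 were low in every Tet2-WT library and Gdf15 was high in every one. Among receptors, Acvrl1 fell and the co-receptor Eng rose (0.36 ± 0.09), the latter not called without pMXs 100, pMXs 250, Tet2-WT 1 or Tet2-WT 2 (0.33 to 0.34). Wnt ligands, receptors and antagonists fell in 13 of 53 and rose in 0 (median -0.37). On the higher side 2 had an unadjusted p under 0.05, 1 was called by DESeq2 and 2 with the replicate block. Rspo2, a secreted enhancer of Wnt signalling, was at 19.9, 27.1 and 28.3 CPM with pMXs and 5.07, 4.51 and 7.36 CPM with Tet2-WT (log2 change -2.17 ± 0.22, adjusted p = 3.39e-05). Dkk3, of the Dickkopf family, was at 72.5, 103 and 112 CPM with pMXs and 22, 23.4 and 33.7 CPM with Tet2-WT (log2 change -1.86 ± 0.20, adjusted p = 5.87e-05). Wnt5a, a non-canonical ligand, was at 86.4, 68.5 and 80.8 CPM with pMXs and 39, 44.4 and 36.4 CPM with Tet2-WT (log2 change -0.97 ± 0.12, adjusted p = 6.88e-05). All had separate groups, as did Axin2, a feedback target of beta-catenin (31, 36.2 and 34.6 CPM with pMXs and 21.4, 24.6 and 22.1 CPM with Tet2-WT, log2 change -0.58 ± 0.10, adjusted p = 0.0014), in medium that held CHIR99021 in both groups.

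Growth factor ligands and receptors fell in 19 of 69 and rose in 7 (median -0.15), with 12, 11, 11 and 11 falls without pMXs 100, pMXs 250, Tet2-WT 1 and Tet2-WT 2. Igfbp4, which holds IGFs, was at 54, 101 and 119 CPM with pMXs and 11.9, 12.5 and 25.5 CPM with Tet2-WT (log2 change -2.47 ± 0.46, adjusted p = 0.00436). The ligand Fgf9 was at 9.38, 11.7 and 12 CPM with pMXs and 3.28, 3.77 and 3.92 CPM with Tet2-WT (log2 change -1.59 ± 0.18, adjusted p = 3.56e-05). Of receptors, Pdgfrb was at 91.4, 115 and 131 CPM with pMXs and 56.1, 51.9 and 69.9 CPM with Tet2-WT (log2 change -0.93 ± 0.14, adjusted p = 0.000502). In these genes all Tet2-WT libraries were below all pMXs libraries, and pMXs 2 was the lowest of its group. The same held for Fgfr2 at 19.3, 25.2 and 25.8 CPM with pMXs and 11.5, 11.6 and 14 CPM with Tet2-WT (log2 change -0.93 ± 0.14, adjusted p = 0.000571). The rises included Mst1, Epgn and Fgfbp1 described above. Axon guidance genes, which also steer vessels and fibroblasts, fell in 21 of 61 and rose in 4 (median -0.26). Slit2 was at 295, 293 and 330 CPM with pMXs and 151, 135 and 172 CPM with Tet2-WT (log2 change -1.0 ± 0.11, adjusted p = 2.97e-05). The netrin receptor Unc5c was at 6.78, 8.47 and 9.65 CPM with pMXs and 2.96, 2.39 and 1.91 CPM with Tet2-WT (log2 change -1.78 ± 0.18, adjusted p = 2.08e-05). The semaphorin receptor Plxnd1 was at 12, 12.6 and 12.8 CPM with pMXs and 6.43, 6.15 and 6.74 CPM with Tet2-WT (log2 change -0.95 ± 0.10, adjusted p = 2.49e-05). The groups were apart in all 3. On the other side Epha2, an ephrin receptor of epithelia, rose (72.9, 73.6 and 64.9 CPM with pMXs and 125, 124 and 99.5 CPM with Tet2-WT, log2 change 0.72 ± 0.11, adjusted p = 0.000442), as did Slit1 (1.77 ± 0.28) and Sema6b (1.54 ± 0.24).

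Epithelial genes divided by structure. Keratins, the intermediate filaments of epithelia, rose in 7 of 16 tested members and fell in 0 by edgeR and by DESeq2, with 1 fall at an unadjusted p under 0.05 (median 1.01). Of the 55 in the list most were too low to test. The filter used the groups, so a weak keratin could pass it through the group where it is high. Krt14, among the rises, was at 0.634, 0.115 and 0.137 CPM with pMXs and 3.1, 1.72 and 0.86 CPM with Tet2-WT. The share of rises and the median are therefore not independent of the filter. Krt8, of simple epithelia, was at 10.9, 7.85 and 6.78 CPM with pMXs and 23, 17.8 and 12.9 CPM with Tet2-WT (log2 change 1.08 ± 0.20, adjusted p = 0.00224). Its partner Krt18 was at 1.65, 2.64 and 2.05 CPM with pMXs and 9.85, 7.05 and 5.25 CPM with Tet2-WT (log2 change 1.77 ± 0.25, adjusted p = 0.000238). Krt6a, a keratin of stressed epidermis with a near copy in Krt6b, was at 0.697, 0.575 and 0.753 CPM with pMXs and 6.71, 4.48 and 2.1 CPM with Tet2-WT (log2 change 2.73 ± 0.50, adjusted p = 0.00226). Levels differed within the restored group, with Tet2-WT 1 highest and Tet2-WT 250 lowest in each. The groups did not overlap. The rises numbered 4 without pMXs 100, pMXs 250 or Tet2-WT 1, and Krt14 was lost without pMXs 100 (2.77 in the pooled fit and 2.25, adjusted p = 0.0678 then). Of 19 laminins and hemidesmosome genes 3 rose and 3 fell (median 0.16), and 5 rose with the replicate block. The rises were Col17a1, Itgb4 and Lama3, parts of the epithelial anchor. Itgb4 was at 382, 298 and 304 CPM with pMXs and 954, 848 and 610 CPM with Tet2-WT (log2 change 1.30 ± 0.17, adjusted p = 0.000203). Lama3 was at 10.3, 7.55 and 11.2 CPM with pMXs and 31.2, 23.4 and 17.1 CPM with Tet2-WT (log2 change 1.32 ± 0.23, adjusted p = 0.00182). Tet2-WT 250 was the lowest restored library in both. The falls were the widespread laminin chains Lamb1 (-0.60 ± 0.08) and Lamc1 (-0.31 ± 0.08) and the matrix protein Frem2 (-0.61 ± 0.19), with 1 fall left without pMXs 250. Of 21 integrin subunits 3 rose and 4 fell (median -0.04). The collagen receptor Itga11 (-0.77 ± 0.09) and the mesenchymal Itga8 (-0.89 ± 0.12) were among the falls, which numbered 2 without pMXs 100, pMXs 250, Tet2-WT 1 or Tet2-WT 2.

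Of 43 desmosome and tight junction genes 3 rose and 2 fell (median 0.16), with the plaque protein Pkp2 higher in all Tet2-WT libraries (41.1, 39.2 and 33.1 CPM with pMXs and 70.3, 62.8 and 54.6 CPM with Tet2-WT, log2 change 0.72 ± 0.10, adjusted p = 0.000288). The rises numbered 1 without pMXs 100, pMXs 250, Tet2-WT 1 or Tet2-WT 2, 8 without Tet2-WT 250, and 6 with the replicate block, under which 6 fell. Cdh1, E-cadherin, did not pass in the pooled fit, although every Tet2-WT library was below every pMXs library, Tet2-WT 250 most so (355, 273 and 286 CPM with pMXs and 262, 261 and 180 CPM with Tet2-WT, log2 change -0.38 ± 0.16, adjusted p = 0.143). It was called lower with the replicate block (-0.46 ± 0.10, adjusted p = 0.00455) and with a term for the set of replicate numbers (-0.48 ± 0.10, adjusted p = 0.00248). Within numbers 1 and 2 its change was -0.45, and within 100 and 250 it was -0.63. Cornified envelope and epidermal differentiation genes rose in 4 of 25 tested and fell in 1 (median 0.35), with 2 rises without pMXs 100, Tet2-WT 1 or Tet2-WT 2, 8 without Tet2-WT 250, and 2 falls without pMXs 2 or with the block. Keratinocyte markers summed to 372 to 453 CPM in pMXs libraries, 679 to 1060 in Tet2-WT libraries and 27.2 to 33.1 in untreated MEFs. Most of this was Itgb4, and the other 16 markers summed to 71.1, 75 and 68.3 CPM with pMXs and 106, 99 and 68.9 with Tet2-WT, so that Tet2-WT 250 lay within the pMXs range. Of the markers 5 of 15 tested rose (3 without pMXs 100). By edgeR and by DESeq2 0 fell, with 2 at an unadjusted p under 0.05. Krt1 was at 0 counts in every pMXs library and no marker was at 0 in every Tet2-WT library, where 3 counts, the limit that a count of 0 allows, come to 0.112 to 0.205 CPM. Whether keratinocyte-like cells have a part in these rises was not tested.

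Genes that handle glutathione or are linked to the oxidative stress factor NRF2 rose in 20 of 51 and fell in 1 (median 0.32), against 6.01% and 6.52% of all genes. Nfe2l2, which codes for NRF2, was at 151, 167 and 144 CPM with pMXs and 242, 243 and 231 CPM with Tet2-WT (log2 change 0.63 ± 0.07, adjusted p = 5.63e-05). Gsr, glutathione reductase, was at 68.5, 68.3 and 66.4 CPM with pMXs and 100, 99.7 and 96.1 CPM with Tet2-WT (log2 change 0.54 ± 0.07, adjusted p = 8.49e-05). G6pdx, which supplies NADPH through the pentose phosphate path, was at 129, 136 and 133 CPM with pMXs and 187, 185 and 188 CPM with Tet2-WT (log2 change 0.49 ± 0.06, adjusted p = 0.000134). The changes were well under 2-fold, yet replicates were tight and the groups apart. Gsto1, a glutathione transferase (241, 228 and 200 CPM with pMXs and 399, 384 and 331 CPM with Tet2-WT, log2 change 0.74 ± 0.11, adjusted p = 0.000389), Gclc, of glutathione synthesis (0.41 ± 0.08), and the haem oxygenase Hmox1 (0.42 ± 0.09) also rose, and Gstt1 fell (1.39, 1.99 and 1.98 CPM with pMXs and 0.704, 0.746 and 0.812 CPM with Tet2-WT, log2 change -1.26 ± 0.28, adjusted p = 0.00749). The rises numbered 13, 11, 12 and 13 without pMXs 100, pMXs 250, Tet2-WT 1 and Tet2-WT 2. Aldehyde and alcohol dehydrogenases rose in 4 of 42 and fell in 4 (median 0.07). Aldh3a2 rose with Aldh3a1 and Adh7 (38.7, 39.5 and 36.8 CPM with pMXs and 55.8, 50.7 and 50.6 CPM with Tet2-WT, log2 change 0.45 ± 0.09, adjusted p = 0.00345), while Aldh1a2, which makes retinoic acid in mesenchyme, fell (6.97, 6.51 and 7.05 CPM with pMXs and 1.69, 2.42 and 3.06 CPM with Tet2-WT, log2 change -1.51 ± 0.23, adjusted p = 0.000564).

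Solute carriers rose in 28 of 249 and fell in 18 (median 0.04). Slc27a1, a fatty acid transporter, was at 35, 35.8 and 38.6 CPM with pMXs and 82, 87.2 and 84.4 CPM with Tet2-WT (log2 change 1.21 ± 0.11, adjusted p = 7.14e-06). Slc48a1, the haem transporter of lysosomes, was at 98.6, 108 and 114 CPM with pMXs and 181, 182 and 180 CPM with Tet2-WT (log2 change 0.76 ± 0.08, adjusted p = 1.99e-05). Slc5a7, the choline transporter, was at 4.63, 3.52 and 4.11 CPM with pMXs and 1.45, 1.19 and 1.58 CPM with Tet2-WT (log2 change -1.53 ± 0.18, adjusted p = 5.86e-05). The first pair was higher and Slc5a7 lower in all Tet2-WT libraries. Without pMXs 100, pMXs 250, Tet2-WT 1 and Tet2-WT 2 the rises numbered 12, 15, 14 and 17, and the falls 9, 9 and 10 without the first 3. Sterol and fatty acid synthesis genes rose in 4 of 37 and fell in 2 (median 0.16), and without the same 4 libraries pMXs 100, pMXs 250, Tet2-WT 1 and Tet2-WT 2 the rises numbered 1, 1, 0 and 1 and the falls 1 in each. Fads1, a fatty acid desaturase, was among the falls (-0.47 ± 0.10).

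Some genes best known from blood cells rose. Itgam, an integrin chain of macrophages, was at 1.2, 0.69 and 0.479 CPM with pMXs and 7.69, 7.01 and 6.69 CPM with Tet2-WT (log2 change 3.18 ± 0.26, adjusted p = 3.57e-06). Laptm5 was at 88.1, 75 and 76.8 CPM with pMXs and 282, 281 and 191 CPM with Tet2-WT (log2 change 1.65 ± 0.14, adjusted p = 4.7e-06). Cd68, a lysosomal glycoprotein of macrophages, was at 5.07, 4.87 and 4.59 CPM with pMXs and 18.8, 15.1 and 14.2 CPM with Tet2-WT (log2 change 1.72 ± 0.19, adjusted p = 3.8e-05). Every Tet2-WT library was above every pMXs library for these and for the receptor Csf1r (0.127, 0.23 and 0.137 CPM with pMXs and 1.08, 0.82 and 0.669 CPM with Tet2-WT, log2 change 2.25 ± 0.44, adjusted p = 0.00296). They are the 4 of 8 tested macrophage markers that rose, and 0 fell by edgeR, by DESeq2 and at an unadjusted p under 0.05. The filter used the groups, so a weak marker could pass it through the group where it is high. Markers near 0 with pMXs also had little room to fall. In untreated MEFs Csf1r was at 1.25, 0.907 and 1.12 CPM, near its Tet2-WT level, while Itgam, Laptm5 and Cd68 were below their pMXs levels. The 18 markers of the list summed to 83 to 96.6 CPM with pMXs and 215 to 312 with Tet2-WT, most of it Laptm5. The other 17 summed to 6.57 to 8.5 and 23.6 to 30.3 CPM. Tyrobp, Adgre1, C1qa, C1qb, C1qc and Lyz1, defining genes of macrophages, were at 0 counts in all Tet2-WT libraries, and these together with Ptprc, Cd53 and Aif1 were at 0 in all pMXs libraries. Lysosome genes rose in 8 of 49 and fell in 1 (median 0.09). The protease Ctsd was at 839, 787 and 819 CPM with pMXs and 1600, 1480 and 1230 CPM with Tet2-WT (log2 change 0.82 ± 0.11, adjusted p = 0.000212). Another, Ctsz, was at 274, 296 and 277 CPM with pMXs and 405, 403 and 410 CPM with Tet2-WT (log2 change 0.53 ± 0.07, adjusted p = 0.000206). The glycoprotein Gpnmb was at 36.2, 34.8 and 40.3 CPM with pMXs and 114, 102 and 106 CPM with Tet2-WT (log2 change 1.54 ± 0.31, adjusted p = 0.00683). Each had separate groups. Ctsh fell (-0.44 ± 0.14) in a call lost without pMXs 100, pMXs 2, Tet2-WT 1 or Tet2-WT 2 and with the replicate block (-0.34 ± 0.16, adjusted p = 0.171; 0 falls in each).

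Interferon response genes rose in 12 of 55 and fell in 2 (median 0.29). Mavs, the adaptor of RNA sensing, was at 91.5, 91.6 and 91.8 CPM with pMXs and 136, 129 and 122 CPM with Tet2-WT (log2 change 0.50 ± 0.07, adjusted p = 0.000422). Xaf1, an interferon-induced apoptosis factor, was at 4.56, 3.52 and 3.56 CPM with pMXs and 12, 10.3 and 9.55 CPM with Tet2-WT (log2 change 1.46 ± 0.20, adjusted p = 0.000209). Isg15, the ubiquitin-like modifier, was at 0.761, 0.46 and 0.89 CPM with pMXs and 2.49, 2.46 and 1.96 CPM with Tet2-WT (log2 change 1.78 ± 0.29, adjusted p = 0.000893). Groups were apart in all 3, at levels that for Isg15 were below the untreated mean of 5.6 ± 0.404 CPM. Oas1a, a sensor of double-stranded RNA with close copies, rose at the same low levels (log2 change 2.10 ± 0.47, adjusted p = 0.00754). The falls, Ifitm1 and Tmem173, numbered 1 without pMXs 100, pMXs 250 or Tet2-WT 1 and 0 without Tet2-WT 2. Chemokines, cytokines and their receptors rose in 7 of 92 and fell in 11 (median -0.10), with 6, 7 and 6 falls without pMXs 100, pMXs 250 and Tet2-WT 2 and 17 with the replicate block. Il34, a ligand of Csf1r, rose (6.72, 10.6 and 10.7 CPM with pMXs and 20.7, 16.6 and 23.1 CPM with Tet2-WT, log2 change 1.10 ± 0.19, adjusted p = 0.00108), and Il6st, the shared receptor chain through which LIF signals, fell (227, 234 and 273 CPM with pMXs and 155, 144 and 156 CPM with Tet2-WT, log2 change -0.69 ± 0.08, adjusted p = 7.01e-05).

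None of the reprogramming factors was called in the pooled fit. Pou5f1 stood at 224, 205 and 205 CPM with pMXs and 285, 254 and 248 CPM with Tet2-WT (log2 change 0.31 ± 0.14, adjusted p = 0.191). With only the 6 libraries of the comparison in the fit it was called (0.31, adjusted p = 0.0136). Klf4 was at 438, 425 and 438 CPM with pMXs and 514, 485 and 474 CPM with Tet2-WT (log2 change 0.18 ± 0.09, adjusted p = 0.244). Sox2 was at 242, 220 and 222 CPM with pMXs and 290, 260 and 238 CPM with Tet2-WT (log2 change 0.20 ± 0.15, adjusted p = 0.462). The first pair lay slightly above the pMXs levels without overlap, and Sox2 overlapped. Myc was at 481, 463 and 437 CPM with pMXs and 557, 520 and 506 CPM with Tet2-WT (log2 change 0.20 ± 0.16, adjusted p = 0.513). It did not overlap either. By DESeq2 0 of the 4 were called, and 1 had an unadjusted p under 0.05. The counts do not part inducible from endogenous copies. Pluripotency genes rose in 4 of 36 and fell in 2 (median 0.03). Gdf3, a ligand of the Nodal type, was at 14.5, 12.2 and 11.6 CPM with pMXs and 20.1, 22 and 22.3 CPM with Tet2-WT (log2 change 0.75 ± 0.16, adjusted p = 0.0055), with the groups apart. L1td1, an RNA-binding protein of pluripotent cells, was at 357, 306 and 293 CPM with pMXs and 538, 537 and 462 CPM with Tet2-WT (log2 change 0.69 ± 0.17, adjusted p = 0.0136). Tfcp2l1, a factor of naive pluripotency, was at 9.64, 9 and 10.6 CPM with pMXs and 15.1, 12.1 and 19.8 CPM with Tet2-WT (log2 change 0.69 ± 0.17, adjusted p = 0.0165). L1td1 was not called without pMXs 100, pMXs 250, Tet2-WT 1 or Tet2-WT 2 (0.63 to 0.66), nor Tfcp2l1 without pMXs 100 or Tet2-WT 250 (0.63, adjusted p = 0.084 and 0.48, adjusted p = 0.0716). The rises numbered 2 without each of the 4 libraries named for L1td1, and 7 rose and 6 fell with the replicate block. Nanog overlapped between groups (15.4, 14.8 and 10.5 CPM with pMXs and 10.1, 12.7 and 4.92 CPM with Tet2-WT, log2 change -0.55 ± 0.28, adjusted p = 0.248), and within numbers 100 and 250 alone it was called lower (-1.39, adjusted p = 0.0323). Klf5 (0.50 ± 0.15) was the other rise, and its call was lost when any 1 of the 6 libraries was left out. Lin28a (-1.11 ± 0.29) and Esrrb (-1.09 ± 0.34) were the falls, which numbered 0 without pMXs 100 or Tet2-WT 1 and 1 without pMXs 2, pMXs 250 or Tet2-WT 250. The call of Esrrb was lost when any 1 of the 6 libraries was left out, with the replicate block (-1.0 ± 0.33, adjusted p = 0.0549), with DESeq2 (-1.11, adjusted p = 0.0569) and with no filter on low counts (-1.09, adjusted p = 0.0651).

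Among 36 genes of cytosine modification, 3 rose, Tet2 included, and 2 fell (median -0.04), against 6 falls with the replicate block. Tet1 overlapped between groups in the pooled fit (35.4, 17.2 and 20.6 CPM with pMXs and 19.1, 22 and 9.79 CPM with Tet2-WT, log2 change -0.51 ± 0.33, adjusted p = 0.393), and with the block it fell (-0.76 ± 0.12, adjusted p = 0.000638). Tet3 did not pass (125, 98.8 and 110 CPM with pMXs and 106, 96.8 and 70.8 CPM with Tet2-WT, log2 change -0.29 ± 0.14, adjusted p = 0.214), and within numbers 100 and 250 alone it was called lower (-0.55, adjusted p = 0.0422). Zbtb38, which reads methylated CpG, rose (71.3, 54.1 and 57.8 CPM with pMXs and 107, 104 and 83.1 CPM with Tet2-WT, log2 change 0.69 ± 0.16, adjusted p = 0.0118). The methyltransferase Dnmt3a fell (98.9, 79 and 87.1 CPM with pMXs and 72.8, 71.9 and 58.7 CPM with Tet2-WT, log2 change -0.38 ± 0.11, adjusted p = 0.0309). Without pMXs 250, Tet2-WT 1 or Tet2-WT 2 only 1 rise was left, and the falls numbered 0 without pMXs 2, pMXs 250 or Tet2-WT 250 and 1 without Tet2-WT 1 or Tet2-WT 2. Germline genes that methylation keeps silent in somatic cells were mostly too low to test: of 41 listed 12 were tested, 2 rose and 0 fell by edgeR, by DESeq2 and at an unadjusted p under 0.05 (median 0.05). Piwil2, of the piRNA path, reached 1 CPM only with Tet2-WT (0.254, 0.383 and 0.479 CPM with pMXs and 1.27, 1.6 and 1.05 CPM with Tet2-WT, log2 change 1.81 ± 0.45, adjusted p = 0.0148), and the rises numbered 0 without pMXs 100 or Tet2-WT 2 and 1 without pMXs 2, pMXs 250 or Tet2-WT 1. Imprinted genes rose in 4 of 52 and fell in 6 (median -0.06). Nap1l5 was at 6.15, 4.64 and 4.52 CPM with pMXs and 2.11, 1.86 and 2.1 CPM with Tet2-WT (log2 change -1.33 ± 0.19, adjusted p = 0.000351). The receptor Gpr1 was at 0.254, 0.345 and 0.274 CPM with pMXs and 1.69, 1.75 and 1.34 CPM with Tet2-WT (log2 change 2.40 ± 0.42, adjusted p = 0.00135). Both had separate groups, in opposite directions. Igf2, the fetal growth factor, fell (313, 607 and 668 CPM with pMXs and 106, 100 and 153 CPM with Tet2-WT, log2 change -2.14 ± 0.33, adjusted p = 0.00134), and pMXs 2 was well below the other empty-vector libraries.

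Several large groups of genes had few calls. Of 80 ribosomal protein genes 0 rose and 0 fell by edgeR and by DESeq2, with 1 in each direction at an unadjusted p under 0.05 (median -0.09). With the replicate block 1 rose, Rps4l (0.26 ± 0.07, adjusted p = 0.0163), as with a term for the set of replicate numbers. Of 80 subunits of oxidative phosphorylation 1 rose and 0 fell by edgeR, by DESeq2 and at an unadjusted p under 0.05 (median 0.06). That subunit, Sdha (0.21 ± 0.06), lost its call when any 1 of the pMXs libraries, Tet2-WT 1 or Tet2-WT 2 was left out. Hox genes fell in 1 of 35 and rose in 0 by edgeR and by DESeq2, with 2 rises at an unadjusted p under 0.05, without pMXs 100 and with the replicate block (median -0.16). The fall was Hoxa13 (0.888, 2.03 and 2.05 CPM with pMXs and 0.281, 0.783 and 0.764 CPM with Tet2-WT, log2 change -1.44 ± 0.45, adjusted p = 0.0493), and falls numbered 0 without pMXs 100, pMXs 250, Tet2-WT 1 or Tet2-WT 2 and 2 without pMXs 2. Cell cycle genes rose in 3 of 50 and fell in 0, with 6 falls at an unadjusted p under 0.05, 2 by DESeq2 and 3 with the replicate block (median -0.09), and 1 rise was left without pMXs 250 or Tet2-WT 2. Ccnd1, cyclin D1, had the smallest p of these (1300, 1370 and 1320 CPM with pMXs and 1860, 1680 and 1760 CPM with Tet2-WT, log2 change 0.41 ± 0.07, adjusted p = 0.000733). Zinc finger genes of the Zfp series rose in 7 of 358 and fell in 11 (median -0.04), shares below the background of 6.01% and 6.52%. Zfp961 (30.5, 29.5 and 27.2 CPM with pMXs and 73, 75.8 and 67 CPM with Tet2-WT) and Zfp809 (26.3, 27.5 and 24.6 CPM with pMXs and 37.3, 46.7 and 46.5 CPM with Tet2-WT, log2 change 0.73 ± 0.11, adjusted p = 0.000378), which silences retroviral DNA, were among the rises, 3 of which were left without pMXs 250, and the falls numbered 7, 5, 6 and 7 without pMXs 100, pMXs 250, Tet2-WT 1 and Tet2-WT 2.

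**Figure D4:**
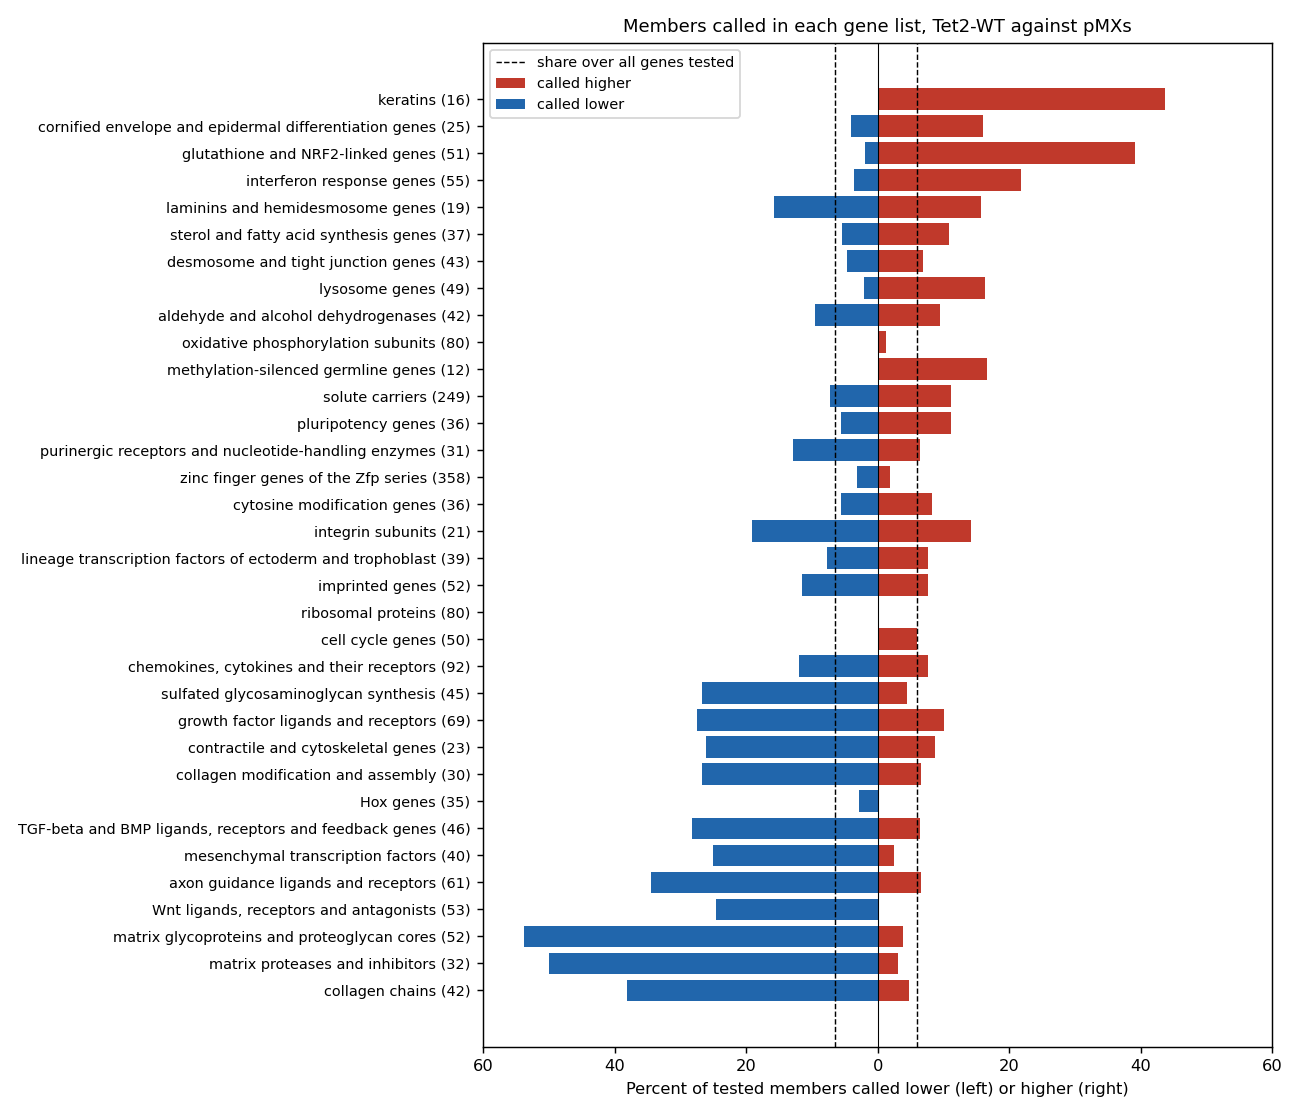
Bars give, for each gene list with 10 or more tested members (number in brackets), the percent called higher (red, right) and lower (blue, left) with Tet2-WT against pMXs, in order of the list's median change; dashed lines are the shares over all genes tested, 6.01% and 6.52%. Matrix glycoproteins and matrix proteases reach farthest to the left and keratins and the glutathione list farthest to the right, while ribosomal proteins have no bar.

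Beside the stalling mutant, Tet2 RNA did not pass the test (Tet2-WT minus Tet2-E 0.07 ± 0.24, adjusted p = 0.964), with Tet2-E 100 lower than the other Tet2-E libraries. Over all genes 675 were called between Tet2-WT and Tet2-E, 4.62% of those tested (2.43% higher and 2.19% lower with Tet2-WT), and 1592 with the replicate block. Between Tet2-E and pMXs 7 were called, 0.0479%, a count that was not repeated under the alternatives. Few calls do not make the levels equal. For Chst3, Lgals3 and Cxcl12 below, every Tet2-E library lay between the pMXs and the Tet2-WT libraries. The comparison of Tet2-WT with Tet2-E shares the Tet2-WT libraries with the main one, so its values are set side by side only. P2rx7 was at 23.3, 21.6, 21.5 and 22.2 CPM in Tet2-E 1, 2, 100 and 250, just above the pMXs range (Tet2-WT minus Tet2-E 1.84 ± 0.10, adjusted p = 1.04e-07). Chst3 was at 72.9, 68, 64.4 and 60.5 CPM, between the other groups (Tet2-WT minus Tet2-E 1.13 ± 0.08, adjusted p = 2.4e-06). Lgals3 was at 267, 266, 196 and 229 CPM (Tet2-WT minus Tet2-E 0.63 ± 0.11, adjusted p = 0.00338). For these 3, each Tet2-E library was below each Tet2-WT library. Cxcl12 was at 37.4, 55.3, 50.8 and 41.9 CPM with Tet2-E (Tet2-WT minus Tet2-E -1.41 ± 0.15, adjusted p = 8.56e-05). Col11a1 was at 301, 342, 395 and 343 CPM (Tet2-WT minus Tet2-E -1.01 ± 0.13, adjusted p = 0.000339). Both were between pMXs and Tet2-WT. Mfap4 was at 14.9, 11.4, 10.4 and 11.6 CPM, around its pMXs level (Tet2-WT minus Tet2-E -1.56 ± 0.14, adjusted p = 1.04e-05). In untreated MEFs the means were 3.11 ± 0.57 CPM for P2rx7, 2.48 ± 0.205 for Chst3, 1430 ± 214 for Cxcl12 and 121 ± 16.3 for Mfap4 (SD, n = 3), so these levels with Tet2-WT lay farther from the untreated ones than with pMXs. Col11a1 was at 514 ± 106 CPM in untreated MEFs, near its level with pMXs.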

How the data were processed

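The deposited table holds whole-number counts of reads for each gene. The authors made it from KAPA stranded mRNA libraries. Per the submitters' processing notes STAR 2.6.1a, SAMtools 1.7, bedtools 2.27.1, featureCounts 1.6.2, R 3.6.2, DESeq2 1.26.0 and the mm9 build were used. The counting strand setting is not given in the sources used here, so genes with antisense partners and near copies share an uncertainty. Groups and replicate numbers came from the labels. Counts of all 13 libraries entered 1 edgeR 4.0.16 fit in R 4.3.3 (robust quasi-likelihood, TMM, filterByExpr with a minimum of 10 and a total of 15), which was tested on simulated data. Of 24495 genes 14607 were tested, and p-values were adjusted over all of them. The filter used the groups, so a weak gene could enter through the group where it is high. This bears most on lists with few tested members, such as keratins, cornified envelope genes, germline genes and macrophage markers.

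Alternatives were DESeq2 1.42.0, its size factors in edgeR, other filters, other samples in the fit, a replicate block, a term for or contrasts within the sets of replicate numbers (1 and 2, 100 and 250), and leaving out each library. Day 5 libraries with the same number deviated from their group means together in all 8 pairs (correlations of 0.12 to 0.34). Those of the same set with another number did so as much (0.08 to 0.36), and opposite sets did not (-0.42 to -0.05). The correlations thus show no pairing by number beyond the set, and the replicate block takes such pairing as an assumption. Deviations add up to 0 within a group, so positive values for some pairs bring negative values for others.

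Members and gene lists were chosen with earlier results of these data known. Genes named were the TET and OKSM genes; the 15 higher and 15 lower with the smallest p among those called at least 2-fold, at 5 CPM or more in a group, without overlap; the 10 and 10 with the largest change; and from each list the 3 that rose and the 3 that fell with the smallest p at 1 CPM or more, or, where none passed, the pair with the lowest p. Unnamed gene models were left out. Bgn, Fn1, Thbs1, Col12a1, Col1a2, Mmp2, Timp3, Acta2, Axin2, Krt14, Cdh1, Gsto1, Gclc, Hmox1, Csf1r, Ctsd, Gpnmb, Oas1a, Nanog, Nt5e and Klf5 were chosen after their values were seen, as were the members left out of marker sums. Promoters came from RefSeq and are another build than the counts, so they were matched by symbol only.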

Additional observations from a re-analysis of the deposited data

Results flagged for a closer look

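Tet2 stood at 581 CPM in Tet2-E 100 against 1300 to 1400 CPM in the other Tet2-E libraries, a gap to the nearest library above Dixon's 95% limit for 4 samples. Tgfbi stood at 92.4 CPM in the same library against 99.5 to 100 CPM, by the same measure. The 30 genes with the smallest p were checked in the 4 Tet2-E libraries, and chance passes this limit in about 1 group in 20. The check was not run in Tet2-WT or pMXs, which have 3 libraries each.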

How the results depend on the processing

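Of 215 genes named by the rule or after their values were seen, 201 were called between Tet2-WT and pMXs. All 201 kept their sign under the 16 alternatives run, 134 were called under each that gave a value, and 67 lost the call under at least 1. Most were picked for a small p in the main fit, and the alternatives reuse its libraries. Kept signs are thus largely set by the choice, and these counts do not describe called genes in general. Leaving out 1 library gave 1097 to 1821 called genes, 512 to 922 of them higher and 567 to 899 lower, and 380 to 617 at 2-fold or more. The replicate block gave 2421 called genes between Tet2-WT and pMXs (1107 higher, 1314 lower), and between Tet2-WT and Tet2-E 1592 (778 higher, 814 lower) against 675. With a term for the set of replicate numbers, in day 5 libraries only, 2698 were called between Tet2-WT and pMXs (1283 higher, 1415 lower). DESeq2 gave 508 lower genes between Tet2-WT and Tet2-E, against 320. Beside the calls given with the results, the block also changed the fold change of Tet2 between Tet2-WT and Tet2-E to -0.06 and that of Kdm5d to 0.20, and Kdm5d between Tet2-WT and pMXs was 0.04 within numbers 100 and 250; none of these was called in any setting. For gene lists, DESeq2 gave 5 rises among laminins and hemidesmosome genes, 5 among junction genes and 7 among cornified envelope genes, against 3, 3 and 4. The cause of these differences was not tested. Leave-one-out and within-set contrasts with 1 library in an arm assume that it varies like the other groups. Genes under about 1 CPM rest on few counts.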

Other observations

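Lineage transcription factors of ectoderm and trophoblast rose in 3 of 39 and fell in 3 (median -0.05), and 5 rose and 7 fell with the replicate block. Ehf, an ETS factor of epithelia, was at 22.3, 17.5 and 14.5 CPM with pMXs and 34.1, 35.5 and 33.5 CPM with Tet2-WT (log2 change 0.92 ± 0.17, adjusted p = 0.00202), with the groups apart. The other rises were Sox21 (0.56 ± 0.16) and Gata2 (0.77 ± 0.23), and rises numbered 1 without pMXs 100, pMXs 250 or Tet2-WT 1. Among the falls were Neurog2 (-0.60 ± 0.17) and Gata6 (-0.53 ± 0.15), and falls numbered 1, 0 and 1 without pMXs 100, pMXs 250 and Tet2-WT 2.

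Endothelial markers summed to 83.2 to 96.7 CPM with pMXs and 82.5 to 92.5 with Tet2-WT, most of it Tek, at 79.6, 67 and 75.1 CPM and 82, 72.3 and 81.5 CPM, and the other 13 came to 15.7 to 17.1 and 9.08 to 10.5 CPM. Of 8 tested 4 fell (median -0.58), Kdr with them (5.9, 3.22 and 2.81 CPM with pMXs and 1.17, 1.04 and 1.05 CPM with Tet2-WT, log2 change -1.85 ± 0.43, adjusted p = 0.0104), with 1 fall without pMXs 100, pMXs 250 or Tet2-WT 2 and 2 without Tet2-WT 1 or Tet2-WT 250. Neural markers summed to 685 to 849 CPM with pMXs and 818 to 1180 with Tet2-WT. Most of this was Nes, and the other 15 summed to 315, 234 and 246 CPM with pMXs and 236, 232 and 173 with Tet2-WT, with a list median of -0.29. Nes, the filament nestin, was the 1 of 15 that rose (534, 451 and 469 CPM with pMXs and 949, 829 and 645 CPM with Tet2-WT, log2 change 0.74 ± 0.15, adjusted p = 0.00395), and 4 fell, Map2 of neurites with them (53.6, 49.1 and 55.2 CPM with pMXs and 30.6, 33.7 and 25.3 CPM with Tet2-WT, log2 change -0.81 ± 0.17, adjusted p = 0.00505), 2 of them without pMXs 100, pMXs 250 or Tet2-WT 2. Muscle markers summed to 28.9 to 40.5 and 32 to 43.8 CPM, and Chrna1, a subunit of the muscle acetylcholine receptor, rose from near 0 (0.19, 0.0383 and 0.0684 CPM with pMXs and 1.08, 1.6 and 0.525 CPM with Tet2-WT, log2 change 3.53 ± 0.61, adjusted p = 0.00132). Erythroid markers summed to 1.98 to 2.66 and 4.06 to 5.44 CPM. Most of the sum with Tet2-WT was Hbb-y, the 1 of 2 tested that rose. It was at 0.697, 0.69 and 0.616 CPM with pMXs and 3.8, 3.39 and 2.82 CPM with Tet2-WT. The globin genes Hba-a1, Hba-a2, Hbb-b1, Hbb-b2 and Hba-x were at 0 counts in all libraries of both groups. Extraembryonic markers summed to 14.4 to 15 and 14.5 to 16.5 CPM. The part of such cells in any result was not tested.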
